A study of Caenorhabditis elegans with 2 samples.

Results

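The 255 microRNA genes of Caenorhabditis elegans outside the mir-51 family were examined for peaks of tagged CEH-13, a Hox transcription factor of the labial type that binds DNA through a homeodomain. They are all genes annotated as microRNA on the 6 nuclear chromosomes of the WBcel235 annotation (Ensembl release 115), after mir-51 to mir-56 were set aside, and make up 255 of 46890 annotated nuclear genes. Each gene was given its strongest peak, by the signal score the authors deposited, with a summit from 2 kb upstream to 500 bp downstream of the annotated 5′ end. The annotated genes had a median length of 95 bp, so for most of them the 5′ end is that of the hairpin and not the start of the primary transcript, while let-7, the longest, is annotated over 1732 bp. The gene F09A5.15, which lies antisense to mir-55, was kept because the rule leaves out only the 6 named genes.

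The chromatin came from whole early embryos aged 2 hours, of mixed sex, of strain OP756, which carries the unc-119(tm4063) mutation and the transgene wgIs756, in which ceh-13 is joined to the tags TY1, EGFP and 3xFLAG and which also supplies unc-119(+). Both biological replicates had this same genotype, there was no other group, and the immunoprecipitation used an anti-GFP antibody. The tagged protein came from 1 transgenic line beside the native ceh-13 gene, and whole embryos mix cells with and without it. The authors deposited a peak list for each replicate, a list from the pooled replicates and a list that passed their irreproducible discovery rate (IDR) step. The first 3 lists held 30000 peaks each, and a q-value under 0.05 was given to 1380 of them in replicate 1, 1082 in replicate 2 and 1146 (3.82%) in the pooled list. The IDR list held 512 peaks with signal scores from 86.2 to 720. All lists used the same control alignment and none gives read numbers, so the depth is unknown, scores are read only within 1 list, and 95% intervals (Wilson) cover the counting of genes only.

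MicroRNAs are short RNAs that an Argonaute protein carries to messenger RNAs, where the seed, bases 2 to 8 of the mature strand, pairs with the target and lowers its translation or stability. Their genes are transcribed by RNA polymerase II into a primary transcript, from which Drosha and then Dicer cut the hairpin and the mature strand. In the worm lin-4 and let-7 time larval development, the mir-35 family is needed in the embryo, and many microRNA genes stand in clusters or within introns of protein-coding genes.

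The mature strands whose genes the results turn on are shown in groups that share a seed, in the RNA alphabet, 5′ to 3′, with the seed in capitals. They were read from the RefSeq miRNA features on the RefSeq WBcel235 genome, where all of the genes shown had at least 1 mature strand. The mir-64 cluster shares 1 peak and the seed AUGACAC, which 5 genes carry, and 3 of its strands are shown.
mir-229: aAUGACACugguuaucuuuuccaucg
mir-64: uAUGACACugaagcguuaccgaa
mir-66: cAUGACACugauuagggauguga
The pair mir-73 and mir-74 shares 1 peak and the seed GGCAAGA, which 5 genes carry.
mir-73: uGGCAAGAuguaggcaguucagu
mir-74: uGGCAAGAaauggcagucuaca
The mir-35 family is given because all 8 genes share the seed CACCGGG and 7 of them share 1 peak.
mir-35: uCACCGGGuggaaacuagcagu
mir-36: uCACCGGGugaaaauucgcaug
mir-41: uCACCGGGugaaaaaucaccua
mir-42: uCACCGGGuuaacaucuacaga
The pair mir-46 and mir-47 has the seed GUCAUGG in common, at 2 separate loci.
mir-46: uGUCAUGGagucgcucucuuca
mir-47: uGUCAUGGaggcgcucucuuca
The remaining strands belong to single loci with a peak under q 0.05 (mir-59, mir-2215, mir-124, mir-58.1) and to lin-4 and let-7, for which no such peak was listed.
mir-59: uCGAAUCGuuuaucaggaugaug
mir-2215: aCAGCACGuguuacgaugcucc
mir-124: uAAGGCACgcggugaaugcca
mir-58.1: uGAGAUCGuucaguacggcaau
lin-4: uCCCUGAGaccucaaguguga
let-7: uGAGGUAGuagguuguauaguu

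Few microRNA genes held a strong peak. An IDR peak lay in the window of 4 of 255 microRNA genes (1.57%, 95% interval 0.612 to 3.96), mir-235, mir-59, mir-2215 and mir-1824, against 2.42% of all annotated genes and 2.21% of protein-coding genes. A pooled peak with q under 0.05 lay in the window of 17 microRNA genes (6.67%, 95% interval 4.2 to 10.4), against 4.38% of all annotated genes and 4.37% of protein-coding genes. Because clustered genes share a window, these 17 genes stand for 13 distinct peaks. In both replicates separately, 11 microRNA genes (4.31%, 95% interval 2.43 to 7.56) had a peak with q under 0.05, at 7 distinct pairs of peaks, against 2.55% of all annotated genes and 2.24% of protein-coding genes. For these 3 rules the share over all annotated genes lies inside the interval of the microRNA genes. The protein-coding share does too, except for the rule of both replicates, where 2.24% lies below the interval. The intervals take genes as independent although several share a peak. No test of the difference was made.

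Other classes of noncoding RNA genes lay on both sides of the microRNA genes by the same rule. An IDR peak lay at 1.57% of microRNA genes, against 37.3% of 612 tRNA genes, 19.1% of 346 snoRNA genes and 10.9% of 129 snRNA genes, and none of these 3 intervals reached that of the microRNA genes. A pooled peak with q under 0.05 lay at 6.67% of microRNA genes, against 48.2% of tRNA genes, 24.6% of snoRNA genes and 17.1% of snRNA genes. The microRNA shares stood above those of the 15363 piRNA genes, of which 0.488% had an IDR peak and 1.11% a pooled peak with q under 0.05, and above those of the 194 lincRNA genes, with 1.03% and 2.58%, whose intervals overlap those of the microRNA genes. The 7764 genes annotated only as ncRNA had 3.68% and 7.19%. As a second background, 1.22% of all positions of the nuclear genome have an IDR summit at the same distances, and 2.7% have the summit of a pooled peak with q under 0.05.

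**Figure D1:**
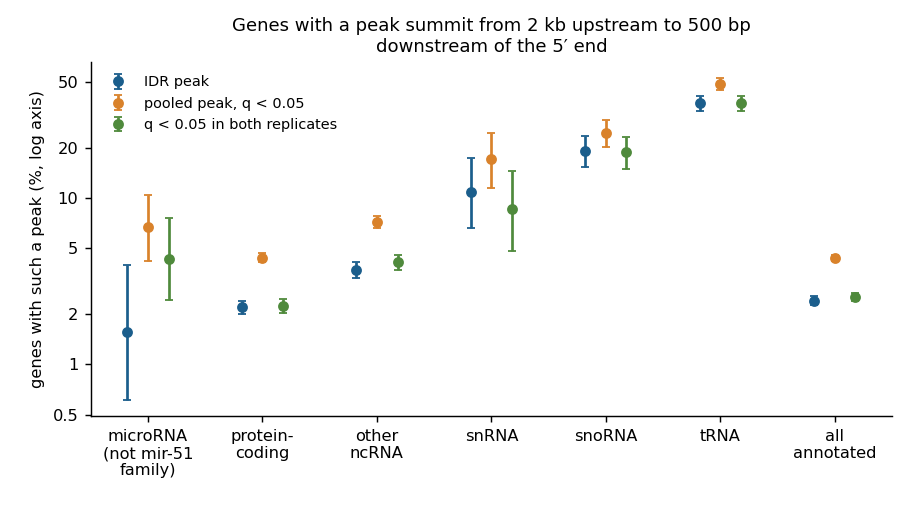
Share of genes (percent, log axis) with an IDR peak, a pooled peak with q under 0.05, or a peak with q under 0.05 in both replicates, by gene class; points are shares and bars are 95% Wilson intervals. The microRNA genes (1.57%, 6.67% and 4.31%) sit near protein-coding genes and below snRNA, snoRNA and tRNA genes, while piRNA and lincRNA genes are not drawn.

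Weak peaks were common at microRNA genes. Any pooled peak at all was listed for 155 of 255 microRNA genes (60.8%, 95% interval 54.7 to 66.6), against 53.7% of protein-coding genes and 45.2% of all annotated genes. The share was 63.2% at genes annotated only as ncRNA, 63.6% at snRNA genes, 76.3% at snoRNA genes and 85.8% at tRNA genes, and 22.7% at the piRNA genes, which make up a large part of all annotated genes. The strongest pooled peak had a median score of 40.5 over the 155 microRNA genes, with a middle range of 30.7 to 54.5 and extremes of 24.0 and 113, against medians of 35.4 over protein-coding genes and 35.7 over all annotated genes. Replicate 1 gave a median of 26.7 for microRNA genes against 23.1 for all genes, and replicate 2 gave 21 against 18.3. The median of the microRNA genes was thus above that of all annotated genes in each list. The highest score of any microRNA gene, 113, was below the median of the IDR list, 129.

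**Figure D2:**
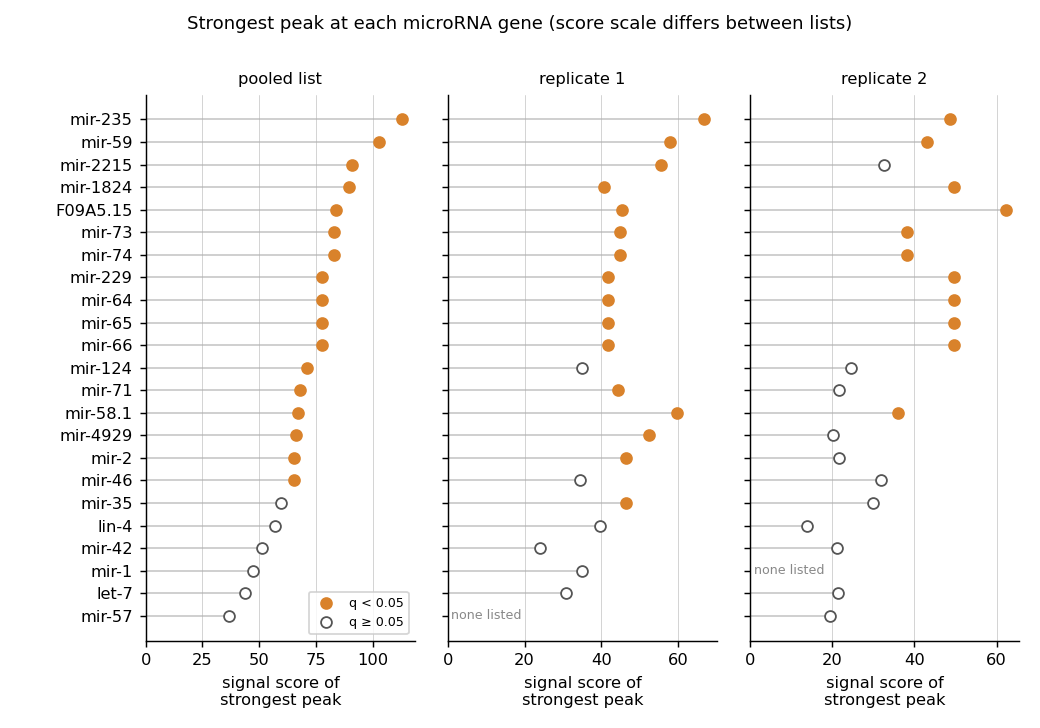
Signal score of the strongest peak in the window of each named microRNA gene, in the pooled list and in each replicate; filled points have q under 0.05. The 17 genes above mir-35 are those called in the pooled list, and only some of them are filled in both replicates.

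Of the 4 genes with an IDR peak, 3 have other annotated genes beside the summit. The gene mir-235 (WBGene00003328; I, 6162291 to 6162387, minus strand), which belongs to the miR-92 family and holds arrested larvae in their resting state, had scores of 113 in the pooled list (q = 0.00136, rank 324), 66.7 in replicate 1 (q = 0.00131) and 48.7 in replicate 2 (q = 0.00479). The 3 summits agree within 30 bp, and the pooled one lay 1984 bp upstream of the hairpin, 180 bp downstream of the 5′ end of the tRNA gene T09B4.t1. The gene mir-59 (WBGene00003287; IV, 11309154 to 11309253, minus strand) had scores of 103 in the pooled list (q = 0.0039, rank 385), 57.9 in replicate 1 (q = 0.00332) and 43.1 in replicate 2 (q = 0.00348). Its summits lay 1573 to 1595 bp upstream of the hairpin, and the pooled one was 146 bp upstream of znf-207, a zinc finger gene.

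The gene mir-1824 (WBGene00077718; I, 13513955 to 13514047, plus strand) lies within Y87G2A.18, on the opposite strand. Its scores were 89.6 in the pooled list (q = 0.00316, rank 475), 40.8 in replicate 1 (q = 0.0422) and 49.8 in replicate 2 (q = 0.00499), with the pooled summit 364 bp downstream of the hairpin's 5′ end. That summit was 29 bp upstream of the 5′ end of Y87G2A.18 and 231 bp upstream of Y87G2A.1. The gene mir-2215 (WBGene00194807; II, 13333763 to 13333827, minus strand) had scores of 90.7 in the pooled list (q = 0.0032, rank 469), 55.4 in replicate 1 (q = 0.00503) and 32.5 in replicate 2 (q = 0.0611), so replicate 2 alone did not pass. Its 3 summits lay 1711 to 1723 bp upstream of the hairpin, and the nearest protein-coding 5′ end was that of mrpl-20, 2743 bp away. For 3 of the 4 genes, then, the IDR summit lay over 1500 bp from the hairpin. In a window of 1 kb upstream to 500 bp downstream only 1 microRNA gene (0.392%) had an IDR peak, against 2.0% of all annotated genes.

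Of the 13 distinct pooled peaks with q under 0.05, 1 lay within 500 bp of a tRNA, snoRNA, snRNA or rRNA gene, 2 lay in a protein-coding promoter window, here 1000 bp before to 500 bp after the 5′ end, and 10 lay in neither. The same counts were not made over all pooled peaks with q under 0.05, so no background share stands beside them. Genes annotated only as ncRNA were not part of these counts. The 5′ end of such a gene lay 4 bp from the pooled summit of mir-124, 75 bp from that of mir-71 and 147 bp from that of mir-58.1. At mir-2 and mir-46 it lay 294 and 499 bp away. None was among the nearest annotated genes at F09A5.15, mir-2215, mir-4929 and the mir-64 cluster. The 10 peaks in neither belong to 14 microRNA genes. Among them only the peak of mir-73 and mir-74 passed in both replicates with summits within 200 bp of each other. The hairpins of mir-73 (WBGene00003301; X, 2368765 to 2368863) and mir-74 (WBGene00003302; X, 2369043 to 2369139) lie on the plus strand outside protein-coding genes. The shared peak scored 83.0 in the pooled list (q = 0.00444, rank 563), 44.7 in replicate 1 (q = 0.0120) and 38.2 in replicate 2 (q = 0.00877). Its summit was 127 bp upstream of mir-73 in the pooled list and in replicate 2, and 163 bp upstream in replicate 1. The noncoding RNA gene T24D8.11 has its 5′ end 75 bp from the pooled summit.

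The window of 75 bp to each side of that summit is shown because its summits lay within 500 bp upstream of mir-73 in all 3 lists, with q under 0.05 in each. It is the plus strand of the RefSeq WBcel235 sequence (ce11), with GAGAGA and the reverse complement of GGGCGG in capitals.
mir-73 and mir-74 summit, chrX:2368563-2368713: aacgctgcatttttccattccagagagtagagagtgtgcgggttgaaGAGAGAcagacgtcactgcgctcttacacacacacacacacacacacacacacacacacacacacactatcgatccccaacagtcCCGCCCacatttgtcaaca
The window also holds a long run of alternating a and c. The GC content within 100 bp of this summit was 51.7%.

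At the mir-64 cluster the replicates passed at different peaks. The hairpins of mir-229 (III, 2172452 to 2172566), mir-64 (2172848 to 2172957), mir-65 and mir-66 (2173108 to 2173206) follow each other on the plus strand within gcn-1, a translation regulator on the same strand. The pooled peak scored 77.8 (q = 0.00383, rank 654) with its summit 585 bp upstream of mir-229, and replicate 2 had a peak of 49.6 (q = 0.00494) at 566 bp upstream. Replicate 1 passed instead at a peak of 41.6 (q = 0.0336) with its summit 113 bp downstream of the 5′ end of mir-229. The peak of replicate 1 nearest to the pooled summit scored 29.4 (q = 0.352), at 358 bp upstream. The call in both replicates for these 4 genes therefore joins 2 peaks 679 bp apart. The fifth gene counted with this seed, mir-63, lies on chromosome X apart from the cluster. It had pooled, replicate 1 and replicate 2 scores of 24.8, 23.1 and 19.1, none with q under 0.05.

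The same held at mir-58.1 and F09A5.15. The gene mir-58.1 (WBGene00003286; IV, 3233254 to 3233350, plus strand) lies within phkb-1, a phosphorylase kinase subunit gene, and belongs to a family that is among the most abundant in the worm. It had a pooled score of 67.0 (q = 0.0390) with the summit 412 bp downstream of the hairpin's 5′ end, and replicate 1 had 59.6 (q = 0.00344) at 424 bp downstream. Replicate 2 had its peak of 36.1 (q = 0.0125) at 458 bp upstream. At F09A5.15 the pooled score was 83.8 (q = 0.00271) at 497 bp upstream, replicate 2 had 62.4 (q = 0.00227) at 536 bp upstream, and replicate 1 had 45.3 (q = 0.010) at 439 bp downstream. The pooled summit also lay 454 bp downstream of the 5′ end of mir-56, 1 of the genes set aside.

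**Figure D3:**
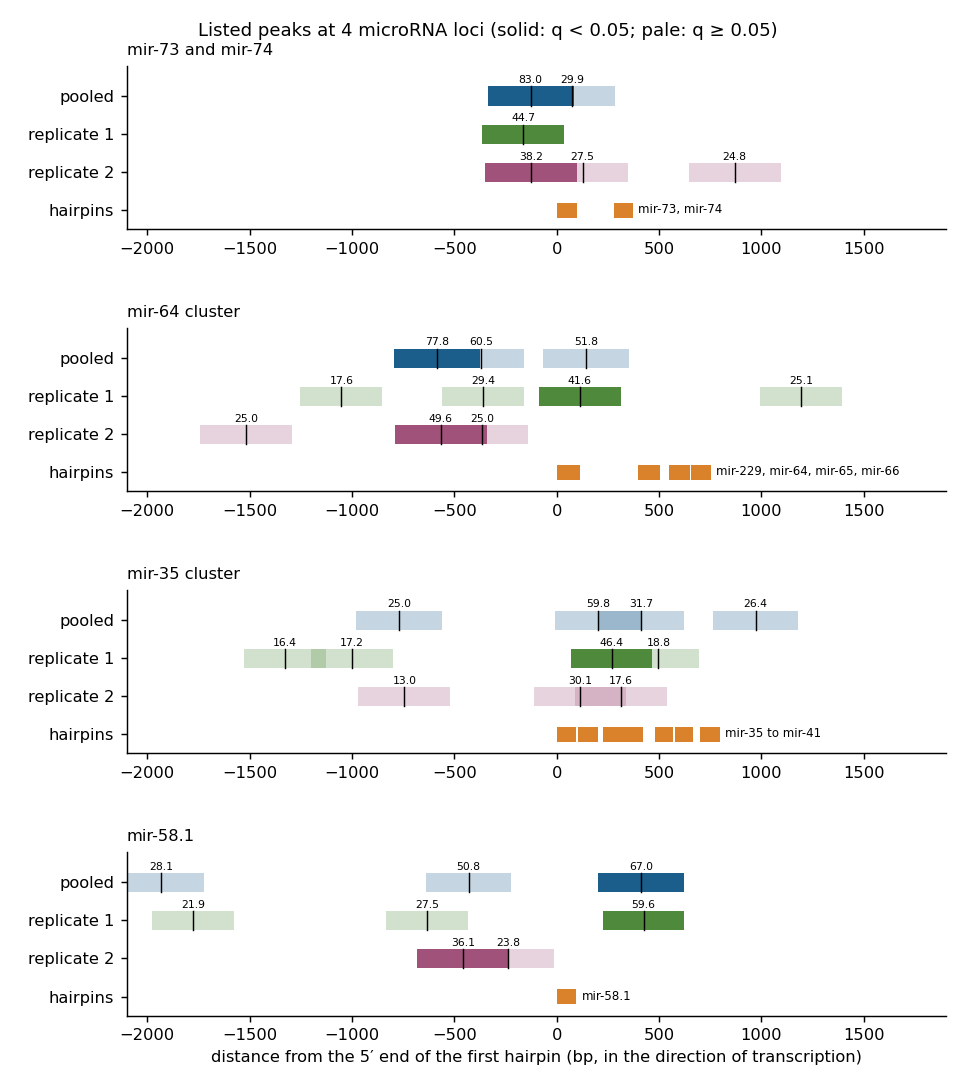
Listed peaks around 4 microRNA loci, as bars in the pooled, replicate 1 and replicate 2 lists, against the distance (bp) from the 5′ end of the first hairpin; ticks mark summits, numbers are signal scores, and solid bars have q under 0.05. The solid bars align at mir-73 and mir-74 (83.0, 44.7 and 38.2), whereas at the mir-64 cluster and mir-58.1 the solid bars of the replicates stand apart.

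Of the other single loci, mir-124 was the only called one with its summit inside the hairpin. The gene mir-124 (WBGene00003319; IV, 11871738 to 11871833, plus strand), which encodes a conserved microRNA of the nervous system, lies within trpa-1, a cation channel gene on the same strand. Its peak scored 71.1 in the pooled list (q = 0.0184), 35.1 in replicate 1 (q = 0.135) and 24.6 in replicate 2 (q = 0.365), so neither replicate passed alone. The summit was 78 bp downstream of the hairpin's 5′ end in the pooled list and in replicate 1, and 119 bp downstream in replicate 2. The window of 75 bp to each side holds the mature strand, printed above as RNA, and the only match to TGATNNAT among the called peaks, in capitals, on the plus strand of the RefSeq WBcel235 sequence (ce11).
mir-124 summit, chrIV:11871741-11871891: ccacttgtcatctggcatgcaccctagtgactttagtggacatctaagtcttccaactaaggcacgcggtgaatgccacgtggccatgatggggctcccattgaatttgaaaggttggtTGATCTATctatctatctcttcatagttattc

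The gene mir-46 (WBGene00003274; III, 13660515 to 13660611, plus strand) likewise passed in the pooled list alone, with 65.3 (q = 0.0411) against 34.3 in replicate 1 (q = 0.155) and 32.0 in replicate 2 (q = 0.0730). Its 3 summits lay 376 to 411 bp upstream of the hairpin. The gene of the same seed, mir-47, had a pooled score of 57.9 (q = 0.110) and 43.1 in replicate 1 (q = 0.0242), with none listed in replicate 2. Its 2 summits lay 475 and 481 bp upstream. The gene mir-4929 (WBGene00219226; II, 13461755 to 13461864, minus strand), within E01G4.3, had 66.4 in the pooled list (q = 0.0388), 52.4 in replicate 1 (q = 0.00439) and 20.1 in replicate 2 (q = 0.605), the last at a different place.

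Within ppfr-1, which encodes a regulatory subunit of protein phosphatase 4, both mir-71 and mir-2 passed in the pooled list and in replicate 1. The gene mir-71 (WBGene00003299), which has a role in adult lifespan, scored 67.9 in the pooled list (q = 0.0354), 44.3 in replicate 1 (q = 0.0171) and 21.7 in replicate 2 (q = 0.523). The gene mir-2 (WBGene00003261) scored 65.4 in the pooled list (q = 0.0413), 46.5 in replicate 1 (q = 0.00577) and 21.6 in replicate 2 (q = 0.526). The pooled summits lay 409 bp upstream of mir-71 and 212 bp upstream of mir-2. Replicate 2 was far from the threshold at both.

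The microRNA genes best known from development held no pooled peak with q under 0.05. Such a peak lay at 6.67% of all microRNA genes and 4.38% of all annotated genes, so among these few loci the lack of a call does not set them apart. The cluster of mir-35 to mir-41 (II, 11537608 to 11538404, plus strand), on the opposite strand of Y62F5A.9, had 1 shared peak of 59.8 in the pooled list (q = 0.0892), with 46.4 in replicate 1 (q = 0.00573) and 30.1 in replicate 2 (q = 0.122). Its summits lay 201, 268 and 115 bp downstream of the 5′ end of mir-35, among the hairpins, and those of the replicates lie within 200 bp of each other. Replicate 1 thus passed and the pooled list and replicate 2 did not. The last gene of the family, mir-42, stands apart and had 51.5 in the pooled list (q = 0.230), 24.0 in replicate 1 and 21.2 in replicate 2, at 3 different places.

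For lin-4 (II, 5902254 to 5902347, plus strand), within F59G1.4, the scores were 56.8 in the pooled list (q = 0.130, 318 bp upstream), 39.7 in replicate 1 (q = 0.0532, 337 bp upstream) and 13.9 in replicate 2 (q = 0.895, 1986 bp upstream). For let-7 (X, 14743590 to 14745321, minus strand) they were 44.0 in the pooled list (q = 0.421), 30.8 in replicate 1 (q = 0.291) and 21.4 in replicate 2 (q = 0.537). Over the let-7 family, 6 of 7 genes had a listed pooled peak, with scores from 24.0 to 51.4, and none had q under 0.05. The gene mir-1, a muscle microRNA, had 47.2 in the pooled list (q = 0.341) and 35.0 in replicate 1 (q = 0.136), and none was listed in replicate 2. The gene mir-57, which acts in posterior patterning of the embryo, had 36.9 in the pooled list (q = 0.619) and 19.6 in replicate 2 (q = 0.632), and none was listed in replicate 1. No list held a peak in the window of lsy-6, which sets the asymmetry of a pair of taste neurons. A q above the threshold in lists of unknown depth does not show that the protein is absent from these genes.

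In the remainder of the mir-58 family the pooled scores were 52.9 at mir-82 (q = 0.202), 43.3 at mir-81 (q = 0.444) and 38.1 at mir-80 (q = 0.586). Of these, mir-82 passed in replicate 1 alone (40.6, q = 0.0418). The gene mir-58.2 was listed in the replicates only, at 17.0 and 16.6, and mir-2209.1 in no list. The gene Y73B6A.17, which shares the seed GAGAUCA with mir-80, was not on the family list and was not counted with it.

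The 17 microRNA families listed by name held 11 of the 17 genes called in the pooled list. Of these families 1 is a mixed group of 10 genes, mir-76 and others, that do not share a seed. It is counted with the families here and held 2 of the 11 called genes, mir-124 and mir-71. Any pooled peak was listed at 56 of 67 family genes (83.6%) and at 99 of 188 others (52.7%). A pooled peak with q under 0.05 lay at 11 family genes (16.4%, 95% interval 9.42 to 27.1) and at 6 others (3.19%, 95% interval 1.47 to 6.79). Counted by distinct listed peak, a base that leaves out genes without a listed peak, 7 of 42 (16.7%) passed in the families and 6 of 93 (6.45%) elsewhere. All 4 IDR peaks lay at genes outside these families. The families were listed with earlier results of these data known, so the difference is a description with no test.

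Most called microRNA genes lay within a protein-coding host gene. Of 74 microRNA genes with a host on the same strand, 10 (13.5%, 95% interval 7.51 to 23.1) had a pooled peak with q under 0.05, against 6 of 149 outside protein-coding genes (4.03%, 95% interval 1.86 to 8.51) and 1 of 29 on the opposite strand of a host (3.45%). By distinct listed peak, again without the genes that have none, the shares were 7 of 49 (14.3%) with a same-strand host and 5 of 66 (7.58%) outside. The 10 genes include the 4 of the mir-64 cluster, so 1 peak adds 4 to that count. None of the 10 had an IDR peak, whereas 3 of the genes outside hosts did.

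Counted by gene, summits were most often just upstream of the hairpins. Of the 155 genes with a pooled peak, 52 (33.5%) had the strongest summit within 500 bp upstream, against 25.7% of protein-coding genes with one. In 28 (18.1%) it lay from the 5′ end to 500 bp downstream, against 20.3%. The farthest bin, from -2000 to -1501 bp, held 31 genes (20%), against 16.6%. Clusters weigh on these shares, since 33 of the 155 genes share their strongest peak with another, which leaves 133 distinct peaks. The shares were not computed by distinct peak. The median summit was 493 bp upstream for microRNA genes and 598 bp upstream for protein-coding genes. Among the 17 genes with a pooled peak under q 0.05, 10 had the summit within 500 bp of the 5′ end, at 9 distinct peaks. The first 500 bp upstream held 41.2% of the 17, against 44.9% of the protein-coding genes called by the same rule. From the 5′ end to 500 bp downstream the shares were 17.6% and 8.93%. The median was 411 bp upstream, against 422 bp upstream for these protein-coding genes. The 5′ ends of hairpins and of protein-coding transcripts are different landmarks, since a hairpin lies inside its primary transcript.

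**Figure D4:**
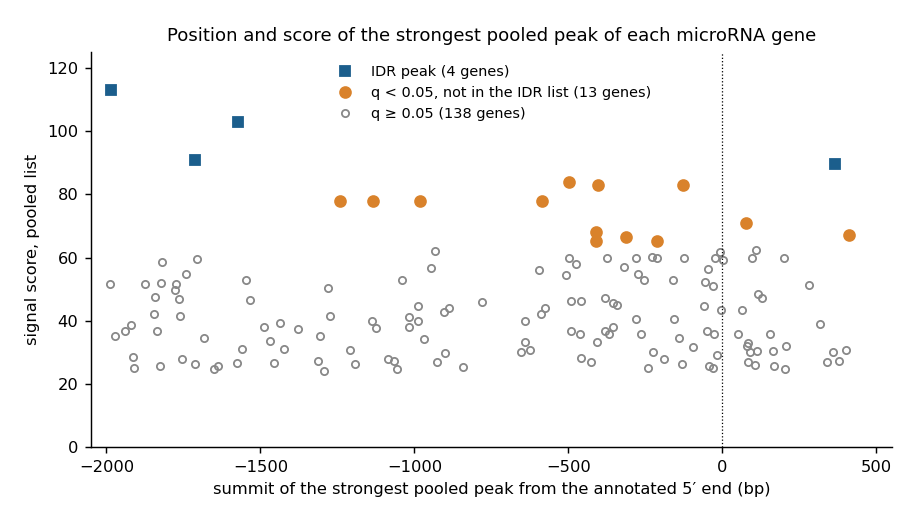
Signal score of the strongest pooled peak of each of 155 microRNA genes against the position of its summit from the annotated 5′ end (bp, negative upstream). The IDR peaks (squares) lie toward the ends of the window, while 10 of the 17 genes with q under 0.05 have a summit within 500 bp of the 5′ end.

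Over all listed peaks, the strongest peak of a microRNA gene often lay at different places in the replicates. A peak was listed in both replicates for 113 microRNA genes, in replicate 1 alone for 42, in replicate 2 alone for 37 and in neither for 63. Of the 113, 41 (36.3%) had summits within 200 bp of each other, against 41.1% of 7285 protein-coding genes listed in both. Over the 113 genes the scores had a Spearman rho of 0.5, and over the 92 distinct pairs of peaks it was 0.388, against 0.347 over protein-coding genes. These values describe genes of the same 2 libraries, called against the same control alignment, and are not independent replicates.

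In replicate 1, 29 microRNA genes (11.4%, 95% interval 8.04 to 15.9) had a peak with q under 0.05, against 4.83% of all annotated genes. In replicate 2 there were 22 (8.63%, 95% interval 5.77 to 12.7), against 3.89%. Both of these background shares lie below the interval of the microRNA genes. Protein-coding genes had 5.02% and 3.91%, and piRNA genes 1.26% and 0.937%. Genes annotated only as ncRNA had 7.62% and 6.44%, the second inside the microRNA interval, and snRNA genes had 17.8% and 14.7%. The intervals again take genes as independent although several share a peak, as mir-35 to mir-41 do in replicate 1. No test of the difference was made. Only 11 genes were in both sets, 18 in replicate 1 alone and 11 in replicate 2 alone. All 11 shared genes were also called in the pooled list, and 5 of them, mir-235, mir-59, mir-1824, mir-73 and mir-74, had replicate summits within 200 bp, at 4 distinct pairs of peaks. Of the 17 genes called in the pooled list, 4 passed in 1 replicate and 2, mir-124 and mir-46, in neither. A further 25 genes passed in a replicate but not in the pooled list, and mir-35 to mir-41 are among them at 1 shared peak. The 25 also include mir-271 (54.4 in replicate 1, q = 0.00481, and none listed in replicate 2) and mir-34, a conserved stress-response microRNA (39.0 in replicate 2, q = 0.00427, against 20.2 in replicate 1, q = 0.758). The genes mir-271 and mir-34 were chosen after their values were seen.

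**Figure D5:**
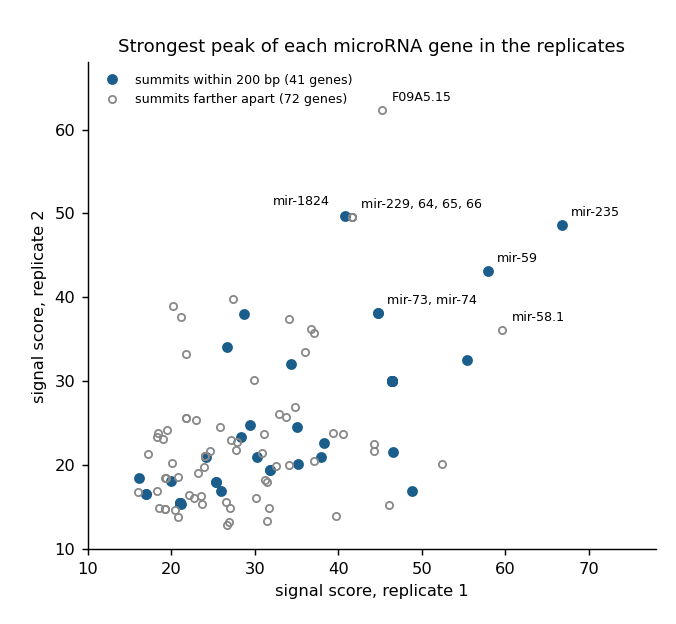
Signal score of the strongest peak of 113 microRNA genes in replicate 2 against replicate 1, with each replicate on its own scale; filled points have summits within 200 bp of each other (41 genes). The genes called in both replicates stand at the upper right, but F09A5.15, mir-58.1 and the mir-64 cluster are open points, with summits farther apart.

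Motifs were counted at the 13 microRNA peaks called in the pooled list. Within 100 bp of the summit on both strands, TGATNNAT, the joint Hox and PBC motif, was in 1 of 13 microRNA peaks (7.69%), against 8.99% of all 1146 pooled peaks with q under 0.05. The homeodomain cores TAATTA or TAATTG were in none of the 13, against 11.3%. The GC box GGGCGG was in 3 (23.1%), at the mir-73 and mir-74, mir-2 and mir-64 cluster peaks, against 14.6%, and GAGAGA was in 5 (38.5%), against 24.4%. The B box of tRNA genes, GTTCGANNC or GTTCAANNC, was in none, against 25.4%. At mir-235 this does not show that the nearby tRNA gene lacks the box. The 5′ end of that gene lay 180 bp from the summit, so the window of 100 bp does not cover the whole gene. The windows had a median GC content of 50.2%, from 37.3 to 59.2%, against 45.8%, and with 13 peaks each one adds 7.69%. A match is a run of letters and was not tested as a binding site.

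Several genes of the microRNA pathway held a strong peak in the same window. Of 33 listed genes of biogenesis and action 31 were matched, and 5 of these (16.1%) had a pooled peak with q under 0.05, 3 of them (9.68%) an IDR peak and 3 (9.68%) a peak under q 0.05 in both replicates. The shares over all protein-coding genes were 4.37%, 2.21% and 2.24%. The pathway list was made with earlier results of these data known, so the difference is a description with no test. The Argonaute gene alg-5 had the highest pooled score, 154 (q = 0.00136), but its summit, 866 bp upstream, was also 173 bp upstream of the nearer of the divergent histone genes his-67 and his-68. It scored 87.3 in replicate 1 and 73.9 in replicate 2. The gene vig-1, a component of the Argonaute complex, had 101 (q = 0.00381) at 385 bp upstream, with 83.1 in replicate 1 at 360 bp upstream and 35.3 in replicate 2 at 247 bp downstream. The gene ain-1, which encodes the GW182 protein that joins Argonaute to RNA decay, had 92.1 (q = 0.00326) at 1901 bp upstream, with 48.9 in replicate 1 and 40.3 in replicate 2.

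The exonuclease gene xrn-2, which degrades mature microRNAs, scored 79.0 (q = 0.00398) at 1208 bp upstream, a summit 187 bp upstream of the nearer of bop-1 and rpl-37A. At xrn-2 replicate 1 had 37.6 (q = 0.0822) and replicate 2 had 43.7 (q = 0.00366). The GTPase gene ran-1 had 65.3 (q = 0.0411) at 387 bp upstream, a peak it shared with dkc-1. At ran-1 replicate 1 had 31.15 (q = 0.275) and replicate 2 had 35.1 (q = 0.017), so replicate 1 did not pass at either gene. The enzyme genes drsh-1 (33.9) and dcr-1 (28.6), pash-1 (59.6), which encodes the RNA-binding partner of Drosha, and the main Argonaute genes alg-1 (53.7) and alg-2 (41.0) had pooled peaks with q of 0.05 or more. Of 23 listed target genes of microRNAs 22 were matched, and 1 (4.55%) had a pooled peak with q under 0.05, against 4.37% of protein-coding genes. That gene was cki-1, a cyclin-dependent kinase inhibitor, with 64.4 in the pooled list (q = 0.0487), 47.3 in replicate 1 (q = 0.00335) and 32.0 in replicate 2 (q = 0.0737). None of the targets had an IDR peak. Among them, lin-14, the classic target of lin-4, had 26.2, and lin-41 and hbl-1, targets of let-7, had 46.7 and 45.6.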

How the data were processed

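Anti-GFP ChIP-seq peak lists of 2 biological replicates were used. The authors made 1 list from each replicate and 1 from both together, each against the same control alignment, and an IDR-thresholded list from these, per the deposited file descriptions. Coordinates are ce11, per the labels. Not given in the sources used here are the aligner, the peak caller and the IDR threshold. The deposited lists give each peak a signal score of unstated scale and the −log10 of a q-value, from which q was computed. Depth is unknown, since no list gives read numbers.

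Genes came from Ensembl release 115 on WBcel235, the assembly of ce11, and no peak ended beyond a chromosome end. Each gene took its strongest peak with a summit from 2000 bp upstream to 500 bp downstream of its 5′ end, and q under 0.05 was the threshold for a call. With 1 group there was no test, and shares were set beside all annotated genes counted the same way. The assignment was tested on simulated data, where 0 of 255 members were assigned wrongly. The members, families, pathway lists and alternatives were chosen with earlier results of these data known. Genes named are those with an IDR peak, the 12 of highest pooled score, those called in both replicates, family and pathway genes called in the pooled list, and let-7, lin-4, lsy-6, mir-1, mir-57 and the mir-35 and mir-58 families in any case; other names complete a family, a pair or a count, or are well-known pathway genes, picked with their values known. Mature strands and the summit windows shown were read from the RefSeq WBcel235 annotation and genome, for genes not on chromosome I. Alternatives were narrower windows, stricter q-values, single replicates, shared peaks counted once, and peaks at other genes left out. Python 3.11.15, numpy 2.4.6, pandas 2.3.3, scipy 1.17.1, statsmodels 0.14.6 and matplotlib 3.10.9 were used.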

Additional observations from a re-analysis of the deposited data

How the results depend on the processing

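Of 35 alternative values for the 4 results, 16 moved by more than 1.5 times or beyond the spread between the replicates, and 19 did not. The 16 include the median scores of the single replicates, whose lists have their own scales, so those moves do not show a dependence on processing. With 1 kb upstream to 500 bp downstream, 1 microRNA gene had an IDR peak instead of 4 and 7 were called in both replicates instead of 11. With 500 bp upstream to 100 bp downstream, the counts were 0 with an IDR peak, 8 instead of 17 with a pooled q under 0.05, and 2 in both replicates. Over all annotated genes the IDR share fell too, from 2.42% to 2.0% and 1.41% in these 2 windows. In the narrower window a pooled q under 0.05 was found at 3.14% of microRNA genes, against 2.27% of all annotated genes. In the main window these shares were 6.67% and 4.38%. For the other settings no share over all genes was computed. Without peaks in protein-coding promoter windows 2 had an IDR peak, and among the peaks above the median of the IDR list there were 0. At q under 0.01 the counts were 11 in the pooled list and 2 in both replicates. Counting 1 gene per shared peak gave 7 in both replicates, asking for replicate summits within 200 bp gave 5, and the distinct pairs among these, an alternative chosen after seeing the data, gave 4. Fewer genes or peaks can pass by the construction of these settings. Single replicates gave 4 to 8 genes among as many strongest peaks as the IDR list holds, 22 to 29 with q under 0.05, and a median score of 21 to 26.7 on the lists' own scales, against 40.5 in the pooled list. Without F09A5.15, also chosen after seeing the data, the counts were 4, 16 and 10. No paired analysis was possible because there is 1 group. The hairpin as landmark, the unknown depth and the 2 libraries limit every count.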
